A study of Mus musculus with 30 samples.

Results

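Integrins are the receptors by which cells hold on to the extracellular matrix and to each other, and each receptor is a pair of 1 α and 1 β subunit. Laminins are the cross-shaped proteins, built of an α, a β and a γ chain, that form the base of the basement membranes around vessels, pia and glial endfeet, where nidogens, agrin and perlecan join them and dystroglycan anchors them to the cell. In the CNS, the same families carry leukocyte and microglial adhesion (the β2 integrins), the tethering of astrocyte endfeet to vessels, and the growth of axons on matrix. The genes of both families, together with Nid1, Nid2, Agrn, Hspg2 and Dag1, were taken by gene symbol. Of the 16995 genes in the table, 35 met this rule, of which 20 encode integrin subunits (13 α and 7 β), 10 encode laminin chains and 5 encode the other matrix and receptor proteins. Itga2, Itga11, Itgal and Itgb6 were not analysed here.

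The RNA came from the intermediate laminae of cervical level C5/C6 in the stroke-denervated hemicord of adult female C57BL/6 mice. Stroke animals received a photothrombotic lesion of the right sensorimotor cortex and were taken 4 days after injury (4 dpi, n = 4) or at 7, 14, 28 or 42 dpi (n = 5 each). The control animals (n = 5, labelled Ctrl) were sham-operated, that is, treated in the same way but without illumination of the skull. No group carried a transgene, and each sample was a hand-trimmed block of tissue from 1 animal that held neurons, glia, vessels and any remaining meninges. A change in such bulk RNA can come from more cells of a type or from more RNA per cell, and these cannot be told apart. Of the 30 animals in the labels, 29 had values, since 1 animal of the 4 dpi group (A9-3) had no column.

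Each value is a normalized CPM (a CPM scaled with edgeR by the authors) rounded to 0.1. It is not a count, the read depth behind it is unknown, and only the differences between animals of 1 group show its precision. In the lists of single animals, values run from lowest to highest, and a value such as 12 stands for 12 at a precision of 0.1. The values of an animal summed to between 714597 and 2256910, because ribosomal RNA was left in very unequal amounts. Rn18s-rs5, a ribosomal RNA locus, lay between 30320 and 52930 in sham and between 44760 and 779200 at 28 dpi. It reached 817800 at 14 dpi, and at 42 dpi all animals lay above the sham range (78740 to 457300). Groups were compared on log2(value + 0.5) with limma, and p values were adjusted over all 16995 genes (Benjamini-Hochberg). SDEGs (significantly differentially expressed genes) had an adjusted p below 0.05 and a fold change above 1.5, which is 0.585 on the log2 scale. The limit of 1.5 can also be read as a log2 value, and no member would then be an SDEG, since the largest log2 difference of a member with an adjusted p below 0.05 was 1.12 (Hspg2, 28 against 14 dpi). All fold changes below are on this log2(value + 0.5) scale, which understates the change of low genes.

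The genes that lead the results are shown first by the DNA just before their RefSeq start, because they moved together or stood apart in what follows. RefSeq promoter windows (GRCm38.p6, which is mm10) were found for 24 of the 35 members, and the 250 bases before the start are used here. They are written 5′ to 3′ on the strand of the gene, with every GC box (GGGCGG or its reverse CCGCCC, the site of Sp1 and related factors) in capitals for Itga4, Hspg2 and Lama5, and the AP-1 site (TGACTCA or its reverse TGAGTCA) in capitals for Itgax.
Itga4, chr2:79255176-79255425, + strand: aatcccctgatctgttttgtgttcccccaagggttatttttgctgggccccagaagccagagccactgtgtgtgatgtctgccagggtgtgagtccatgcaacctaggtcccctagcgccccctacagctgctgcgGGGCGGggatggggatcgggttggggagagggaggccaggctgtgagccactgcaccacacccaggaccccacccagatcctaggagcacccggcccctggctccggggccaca
Hspg2, chr4:137468553-137468802, + strand: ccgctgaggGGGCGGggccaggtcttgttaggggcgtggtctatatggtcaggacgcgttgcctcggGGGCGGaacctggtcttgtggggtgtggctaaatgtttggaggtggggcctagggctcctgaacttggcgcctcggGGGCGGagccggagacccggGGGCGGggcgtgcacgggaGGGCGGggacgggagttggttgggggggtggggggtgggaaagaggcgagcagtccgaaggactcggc
Lama5, chr2:180225860-180226109, − strand: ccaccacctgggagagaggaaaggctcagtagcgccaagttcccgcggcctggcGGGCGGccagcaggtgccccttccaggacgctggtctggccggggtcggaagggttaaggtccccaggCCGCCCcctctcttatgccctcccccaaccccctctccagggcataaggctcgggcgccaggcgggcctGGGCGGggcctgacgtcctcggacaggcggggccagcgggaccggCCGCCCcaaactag
Itgax, chr7:128129300-128129549, + strand: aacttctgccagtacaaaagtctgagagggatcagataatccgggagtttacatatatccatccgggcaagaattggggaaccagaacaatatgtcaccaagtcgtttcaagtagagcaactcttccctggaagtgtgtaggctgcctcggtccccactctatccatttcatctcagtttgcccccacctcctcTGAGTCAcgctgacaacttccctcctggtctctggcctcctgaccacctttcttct

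The RefSeq start of Hspg2 lies downstream of the gene start given below, so that its window reaches past the latter. The window of Hspg2 held 5 GC boxes, that of Lama5 held 4 and that of Itga4 held 1, while that of Itgax held none but had 1 AP-1 site. A GC box occurred in 12 of the 24 members with a window and in 32.7% of the 32851 promoter windows. A member was counted if any of its windows held the letters, while the share is per window, so these rates are unlike. Of the 8 members with a window that were higher at 28 dpi (below), 5 held a GC box. The AP-1 letters occurred in 1 of the 24 members, Itgax, and in 4.46% of all windows. No member had the letters of a TATA box (TATAAA or its reverse TTTATA, 12.4% of all windows), and 6 had a CCAAT box (CCAAT or its reverse ATTGG, 33.8% of all windows). None of these motifs contains another. A match describes letters only, and no binding was measured.

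The receptors of the intermediate laminae were led by a few integrin subunits, while laminin chains were found at lower levels. Levels of different genes were compared per kb of transcript (the longest protein-coding transcript of GENCODE M21). The highest level in sham was that of Itgb8, which pairs with αv and activates latent TGF-β, with 21.0 ± 1.77 per kb (SD, n = 5). Itgb1, the β subunit shared by most α subunits, followed with 16.1 ± 1.57 per kb, and Itgav, its RGD-binding partner, with 15.1 ± 1.28 per kb. Agrn, the heparan sulfate proteoglycan that organizes the neuromuscular synapse, had 10.8 ± 0.868 per kb. Itga6 had 9.92 ± 0.907 per kb, Itgb5 8.46 ± 0.849 per kb and Dag1 7.34 ± 0.204 per kb. The most abundant laminin chain was Lamc1, the γ chain of most laminins, with 4.01 ± 0.751 per kb, followed by Lamb2 with 3.32 ± 0.373 per kb. Among the α chains, which give a laminin its receptor specificity, Lama2 stood first with 1.65 ± 0.254 per kb, ahead of Lama1 (0.783 ± 0.112), Lama5 (0.532 ± 0.165), Lama4 (0.480 ± 0.0950) and Lama3 (0.243 ± 0.0172). Itgax was last, at 0.00989 ± 0.0135 per kb.

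Most of this order is loose. Of the 34 pairs of neighbours in it, 27 had sham ranges that overlapped. The 7 clear steps lay between Itgb8 and Itgb1, Itgav and Agrn, Itgb5 and Dag1, Dag1 and Itga3, Itga3 and Lamc1, Lamb1 and Itga1, and Itga8 and Itgax.

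**Figure D1:**
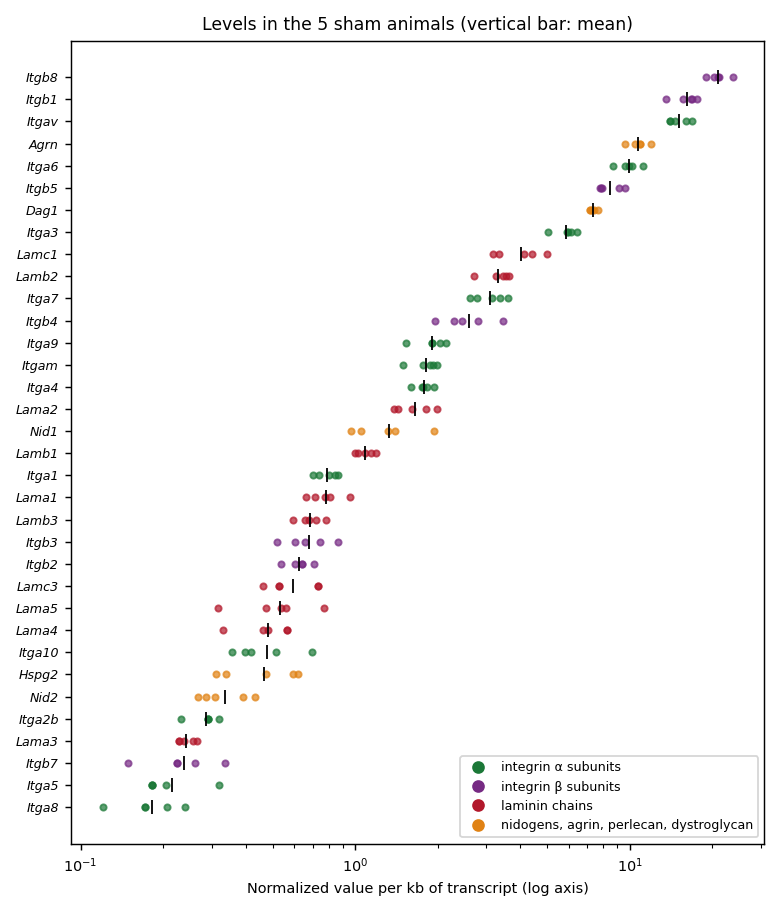
Level of each member in the 5 sham animals, as normalized value per kb of transcript on a log axis (points are animals, the vertical bar is the mean). Itgax is left out because 3 of its sham values were 0. Integrin subunits, Agrn and Dag1 fill the upper end, and the laminin chains begin at Lamc1 with 4.01 per kb.

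The time course of the members was uneven (heat map of all members by animal). At 4, 7, 14 and 42 dpi, none of the 35 members was an SDEG against sham. The limma test gave 5, 3, 7 and 2 members with an unadjusted p below 0.05 at these times, beside 5.14%, 5.84%, 11.6% and 14.8% of all genes. The share of all genes called as SDEGs was 0.0941%, 0.0294%, 0.00588% and 0.0235%, in the same order. At 28 dpi, 3 members were SDEGs, Lama3, Lama5 and Hspg2, all higher than in sham. That is 8.57% of the members beside 4.64% of all genes, and 4.15% of all genes were SDEGs in the higher direction. Without the fold limit, 10 members passed the adjusted p and all 10 were higher, which is 28.6% of the members. An unadjusted p below 0.05 was found for 14 members, beside 38.5% of all genes. Of all genes, 24.9% passed the adjusted p, 11.9% in the higher and 13.0% in the lower direction.

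The median change of the 35 members against sham was 0.21 (log2) at 28 dpi. Before that it was 0.07 (4 dpi), -0.01 (7 dpi) and -0.05 (14 dpi), and afterwards 0.04 (42 dpi). The median at 28 dpi was 0.0805 after a correction for transcript length and GC content (25 members higher, median of all genes -0.0405) and 0.0913 with equal sums without ribosomal RNA (24 higher, median of all genes -0.11). Over all genes, the medians of the contrasts as deposited lay within 0.01 of 0. At 28 dpi, 29 of the 35 members had a higher mean log2 value than sham (82.9% of the members and 49.3% of all genes). In the other groups the number was 21 (4 dpi, beside 51.9% of all genes), 17 (7 dpi, 49.8%), 14 (14 dpi, 47.8%) and 21 (42 dpi, 48.4%). A test for any difference among the 6 groups (moderated F) gave 13 members with an adjusted p below 0.05, or 37.1%, beside 31.6% of all genes.

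**Figure D2:**
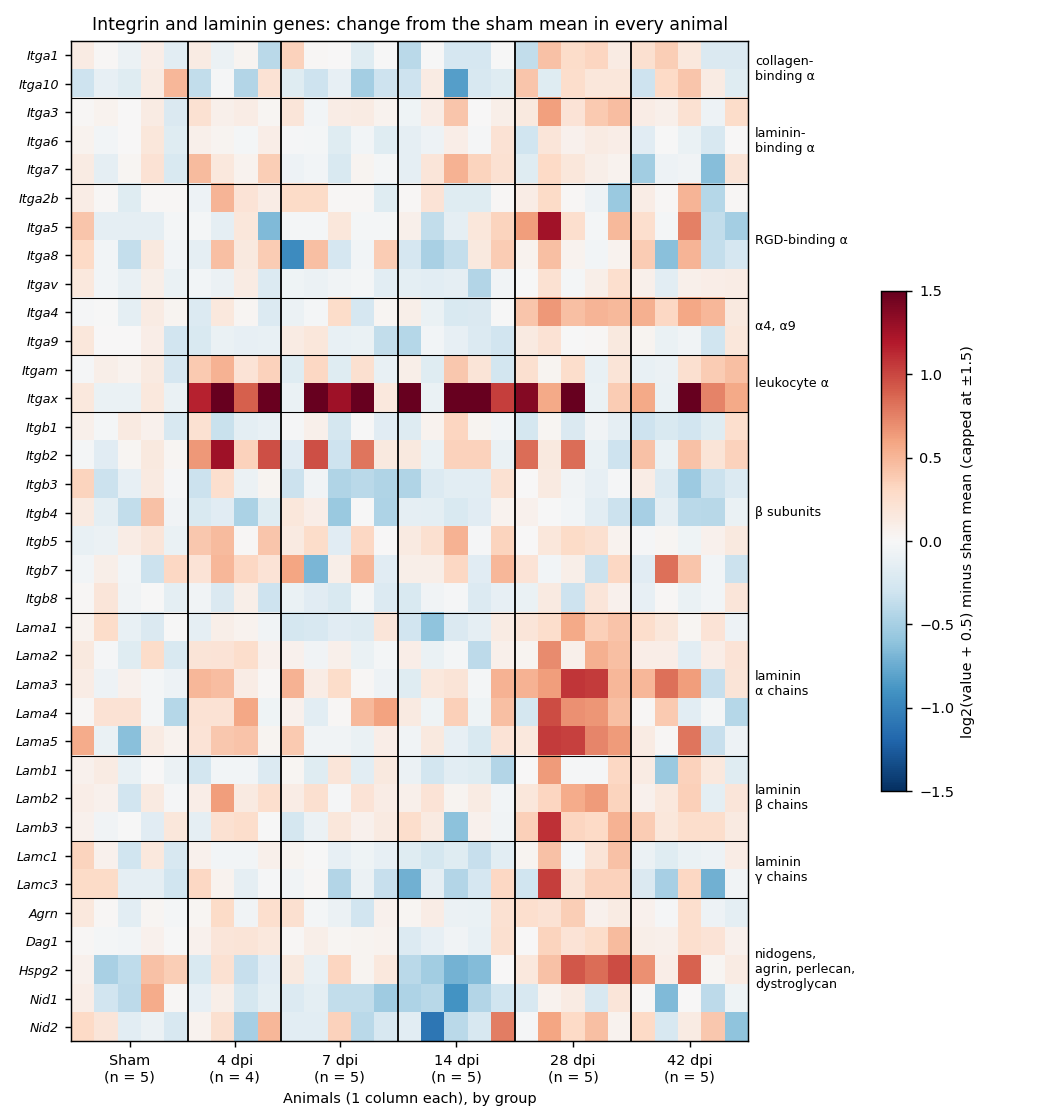
Change of each member from its sham mean in every animal, on log2(value + 0.5), with 1 column per animal and rows grouped by role (red higher, blue lower, capped at 1.5 in either direction). The laminin α chains, Itga4 and Hspg2 are red in most of the 5 columns at 28 dpi, and Itgax and Itgb2 are red in all 4 columns at 4 dpi and in some later ones.

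At 28 dpi, all 5 laminin α chains had a higher mean than sham and 4 of the 5 passed the adjusted p (median log2 change 0.50), beside 11.9% of all genes in the higher direction. Of the 3 β chains, 2 passed (median 0.41), and the difference between α and β chains was not tested. Lama5, the α chain of the laminins of mature vessels, lies at chr2:180176373-180225859 on the − strand. Lama5 measured 3.6, 5.4, 6.1, 6.4 and 8.8 in sham, while the 4 dpi animals had 6, 6.8, 7.9 and 8, the 7 dpi group 5.4, 5.6, 5.6, 6.3 and 7.8, the 14 dpi group 4.9, 5.3, 5.6, 6.5 and 6.8, the 28 dpi group 6.6, 9.4, 10, 12.4 and 12.6, and the 42 dpi group 4.5, 5.5, 5.9, 6.4 and 10.6. Of the 28 dpi animals, 4 of 5 lay above every sham animal and the fifth lay inside the sham range. The difference was 0.72 ± 0.188 (log2, SE, adjusted p = 0.00783, limma). It passed the adjusted p in each of the 10 fits without 1 animal, but without sham A12-1 the difference was 0.56 and under the fold limit.

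Lama3 is the α chain of the laminin that anchors epithelia. Lama3 measured 2.4, 2.4, 2.5, 2.7 and 2.8 in sham, while the 4 dpi animals had 2.6, 2.8, 3.7 and 3.8, the 7 dpi group 2.4, 2.6, 2.8, 3.2 and 3.9, the 14 dpi group 2.2, 2.5, 2.9, 3 and 3.9, the 28 dpi group 3.8, 3.9, 4.2, 5.8 and 5.9, and the 42 dpi group 1.9, 3, 3.8, 4.2 and 4.9. The groups did not overlap at 28 dpi, at levels that are low throughout. The difference was 0.75 ± 0.175 (log2, SE, adjusted p = 0.00404, limma). Transcripts of Gm29200 on the opposite strand cover 1.83% of its exon bases, and since the kit does not mark strand, reads of the pair there cannot be told apart. Such overlap also covers exon bases of Lama2 (3.86%), Lamc3 (6.27%), Itgb4 (7.66%), Itgav (5.9%), Itga8 (5.05%), Itga7 (0.11%), Nid1 (2.06%) and Nid2 (8.45%), and of Itga4 (below).

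Lama2, whose loss causes a congenital muscular dystrophy and which is deposited by vessel-associated cells of the CNS, was higher with overlap. Lama2 measured 13.3, 13.8, 15.5, 17.4 and 19.1 in sham, while the 4 dpi animals had 16.4, 18, 18.1 and 18.9, the 7 dpi group 14.6, 15.1, 15.3, 16.4 and 16.5, the 14 dpi group 11.8, 14.6, 15.4, 16.6 and 16.9, the 28 dpi group 16.2, 16.5, 21.7, 22.9 and 26, and the 42 dpi group 14, 16.9, 16.9, 16.9 and 18.1. At 28 dpi, 3 animals lay above the sham range and 2 inside it. The difference was 0.36 ± 0.113 (log2, SE, adjusted p = 0.0204, limma). The call was lost when sham A12-1, sham A12-3, 28 dpi A3-3 or 28 dpi A4-3 was left out. It was also lost in 5 of 12 other settings, among them a fit of only the groups compared (adjusted p = 0.0858, limma) and equal sums without ribosomal RNA (adjusted p = 0.0709, limma), over a range of 0.0052 to 0.362 for all fits.

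Lama1, the chain of early and pial basement membranes, showed a like pattern. Lama1 measured 6.3, 6.8, 7.4, 7.7 and 9.1 in sham, while the 4 dpi animals had 6.7, 7.1, 7.7 and 7.9, the 7 dpi group 6.1, 6.2, 6.4, 6.5 and 8.5, the 14 dpi group 4.7, 6, 6.3, 6.7 and 8.1, the 28 dpi group 8.5, 9, 9.6, 10.1 and 11.2, and the 42 dpi group 7, 7.6, 8.4, 8.6 and 9. At 28 dpi, 3 animals lay above the sham range. The difference was 0.36 ± 0.116 (log2, SE, adjusted p = 0.0247, limma). This call was lost without sham A12-1, sham A12-2, 28 dpi A4-1 or 28 dpi A4-4, and in the same 5 of 12 other settings as for Lama2. For Lama1, fitting sham and 28 dpi alone gave an adjusted p of 0.0510, against 0.155 with equal sums without ribosomal RNA (limma), within a range of 0.0130 to 0.313 for all fits.

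Lama4, the endothelial α chain, did not pass. Lama4 measured 2, 2.8, 2.9, 3.4 and 3.4 in sham, while the 4 dpi animals had 2.7, 3.4, 3.4 and 4.5, the 7 dpi group 2.5, 2.9, 3, 4.2 and 4.6, the 14 dpi group 2.7, 2.7, 3.2, 3.8 and 4.1, the 28 dpi group 2.3, 4.1, 4.8, 4.9 and 6.1, and the 42 dpi group 2, 2.5, 2.8, 2.9 and 3.9. In 4 of 5 animals at 28 dpi it lay above every sham animal, while A3-1 lay inside the sham range. The difference was 0.50 ± 0.193 (log2, SE, adjusted p = 0.0548, limma). Without A3-1 it was an SDEG, with a log2 change of 0.69 and an adjusted p of 0.00554 (limma).

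Of the β and γ chains, Lamb2 and Lamb3 passed the adjusted p at 28 dpi, and Lamb1, Lamc1 and Lamc3 did not. Lamb2, the β chain of vascular and synaptic basement membranes, lies at chr9:108479736-108490530. Lamb2 measured 15.2, 18.4, 19.5, 19.9 and 20.5 in sham, while the 4 dpi animals had 20, 20.4, 22.3 and 29.1, the 7 dpi group 18.4, 20.1, 20.2, 21.6 and 22.1, the 14 dpi group 18.1, 19.1, 19.6, 20.3 and 21.5, the 28 dpi group 21, 23.4, 23.5, 27.7 and 29.3, and the 42 dpi group 16.8, 19.5, 20.8, 21.2 and 23.9. The groups did not overlap at 28 dpi. The difference was 0.41 ± 0.102 (log2, SE, adjusted p = 0.00634, limma).

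Lamb3 is the β chain that joins Lama3 in epithelia. Lamb3 measured 2.9, 3.2, 3.3, 3.5 and 3.8 in sham, while the 4 dpi animals had 3, 3.3, 4 and 4.1, the 7 dpi group 2.7, 3.1, 3.5, 3.7 and 3.8, the 14 dpi group 2, 3.2, 3.5, 3.7 and 4.1, the 28 dpi group 4.2, 4.3, 4.4, 5 and 7.7, and the 42 dpi group 3.7, 3.8, 4.1, 4.1 and 4.5. Again all 5 animals at 28 dpi lay above the sham range, with A3-3 far above the other 4. The difference was 0.52 ± 0.149 (log2, SE, adjusted p = 0.0136, limma). Without A3-3 it no longer passed.

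Lamb1, the more widespread β chain, was not called. Lamb1 measured 5.8, 5.9, 6.3, 6.6 and 6.9 in sham, while the 4 dpi animals had 5.1, 5.4, 6.1 and 6.1, the 7 dpi group 5.5, 5.6, 6.4, 7 and 7.2, the 14 dpi group 4.5, 5.1, 5.5, 5.6 and 5.9, the 28 dpi group 6.2, 6.2, 6.3, 7.9 and 10.1, and the 42 dpi group 4.1, 5.5, 6.9, 7.1 and 8.1. Only 2 of 5 animals at 28 dpi exceeded the sham range. The difference was 0.18 ± 0.137 (log2, SE, adjusted p = 0.333, limma).

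Lamc1, the γ chain of nearly all laminins, varied widely in sham. Lamc1 measured 24.3, 25.4, 31.4, 33.6 and 38 in sham, while the 4 dpi animals had 29.2, 29.3, 31.5 and 31.9, the 7 dpi group 27.6, 27.7, 28.7, 30 and 31.1, the 14 dpi group 23.5, 25, 26.4, 26.5 and 27, the 28 dpi group 29.5, 31.1, 34.5, 40.9 and 40.9, and the 42 dpi group 26.5, 28, 28.3, 28.6 and 32.6. At 28 dpi, 2 animals lay above the sham range, and at 14 dpi 1 lay below it. The difference was 0.22 ± 0.0962 (log2, SE, adjusted p = 0.0957, limma). It passed when sham A11-1 or 28 dpi A4-1 was left out. Lamc3, a γ chain of restricted distribution, had 1 of the lowest log2 differences at 42 dpi. Lamc3 measured 2.7, 3.1, 3.1, 4.3 and 4.3 in sham, while the 4 dpi animals had 3.1, 3.4, 3.6 and 4.4, the 7 dpi group 2.4, 2.6, 3.2, 3.3 and 3.5, the 14 dpi group 1.9, 2.4, 2.8, 3.1 and 4.4, the 28 dpi group 2.7, 4, 4.5, 4.5 and 7.6, and the 42 dpi group 1.9, 2.3, 2.9, 3.3 and 4.4. The groups overlapped at every time point. The difference was -0.23 ± 0.204 (log2, SE, adjusted p = 0.642, limma).

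Among the 5 genes for nidogens, agrin, perlecan and dystroglycan, 4 had a higher mean at 28 dpi than in sham and 2 passed the adjusted p, Hspg2 and Dag1 (beside 49.3% of all genes with a higher mean and 11.9% that passed and were higher). Hspg2, which encodes perlecan, the large heparan sulfate proteoglycan of basement membranes, lies at chr4:137468769-137570630. Hspg2 measured 4.4, 4.8, 6.7, 8.4 and 8.8 in sham, while the 4 dpi animals had 4.9, 5.4, 5.6 and 7.6, the 7 dpi group 5.9, 6.6, 7.1, 7.2 and 8.1, the 14 dpi group 3.7, 3.9, 4.3, 4.7 and 6.4, the 28 dpi group 7.2, 8.8, 11.8, 12.6 and 13.1, and the 42 dpi group 6.5, 6.9, 7, 10.6 and 12.2. At 28 dpi, 3 of 5 animals lay above the sham range, while 3 of 5 lay below it at 14 dpi. The difference was 0.67 ± 0.190 (log2, SE, adjusted p = 0.0131, limma). It was not an SDEG without sham A12-1 (0.57, adjusted p = 0.0525, limma) or without sham A11-4 (0.55, adjusted p = 0.0421, limma). In 3 of 12 other settings (equal sums, the Rn18s-rs5 covariate, and the length and GC correction) it did not pass, and its adjusted p over all fits lay between 0.00364 and 0.835. Dag1 encodes dystroglycan, the receptor for laminin α chains and perlecan. Dag1 measured 40.5, 40.6, 41.3, 42 and 43.3 in sham, while the 4 dpi animals had 43.6, 46.3, 47 and 47.4, the 7 dpi group 42, 42.4, 42.6, 43.2 and 44.1, the 14 dpi group 36.1, 38.1, 38.5, 39.9 and 49.2, the 28 dpi group 41.7, 48.1, 50.3, 52.3 and 57.7, and the 42 dpi group 43.6, 43.8, 44.1, 47.9 and 49.7. Every animal at 4 dpi and at 42 dpi, and 4 of 5 at 28 dpi, lay above the sham range. The difference was 0.26 ± 0.0710 (log2, SE, adjusted p = 0.0109, limma). At 4 dpi it was 0.15 (adjusted p = 0.991, limma) and at 42 dpi 0.14 (adjusted p = 0.366, limma). At 28 dpi, Dag1 did not pass in 4 of 12 other settings, the 3 in which Hspg2 did not and equal sums without ribosomal RNA, and its adjusted p ranged from 0.00143 to 0.179 over all fits.

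Nid1, which bridges laminin and type IV collagen, did not pass at 28 dpi and had the lowest log2 difference of all members at 14 dpi. Nid1 measured 5.9, 6.4, 8, 8.5 and 11.8 in sham, while the 4 dpi animals had 6.5, 7.1, 7.2 and 8.4, the 7 dpi group 5.3, 6, 6, 6.8 and 7.1, the 14 dpi group 4, 5.6, 5.7, 5.8 and 6.3, the 28 dpi group 6.6, 6.6, 8.2, 8.6 and 9, and the 42 dpi group 4.8, 5.9, 7.5, 7.9 and 8. At 14 dpi, 4 of 5 animals lay below the sham range. The difference was -0.50 ± 0.151 (log2, SE, adjusted p = 0.381, limma). Agrn ranged from 69.6 to 87.1 in sham and from 81.7 to 101.0 at 28 dpi, and Nid2 from 1.3 to 2.1 and from 1.6 to 2.7. Neither passed in any contrast with sham.

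Among the integrins, 2 of 20 passed the adjusted p at 28 dpi, both α subunits and both higher, beside 11.9% of all genes in that direction and 24.9% in both. The lowest adjusted p of any member was that of Itga4, the α4 subunit that pairs with β1 or β7 and binds VCAM1 and fibronectin. It lies at chr2:79255426-79333123 on the + strand. Itga4 measured 15.6, 17.1, 17.3, 17.8 and 18.9 in sham, while the 4 dpi animals had 15, 15, 17.6 and 19.3, the 7 dpi group 14.4, 16.2, 16.9, 17.6 and 21, the 14 dpi group 14.7, 14.8, 16.1, 17.3 and 18.5, the 28 dpi group 23.2, 23.8, 24.4, 24.8 and 27.4, and the 42 dpi group 19.2, 21.6, 24.6, 25.3 and 26.1. Each of the 10 animals taken at 28 or 42 dpi lay above every sham animal, and none of those taken at 14 dpi did. The difference at 28 dpi was 0.50 ± 0.0940 (log2, SE, adjusted p = 0.00145, limma). At 42 dpi it was 0.41 ± 0.0940 (log2, SE, adjusted p = 0.0724, limma). With the unit in the animal names as a random block, or without 42 dpi A3-4, the 42 dpi difference passed the adjusted p, and in the other fits it did not. Each unit but A3 held animals of 1 group only, so unit and time cannot be told apart. In the block fit, 0.488% of all genes passed at 42 dpi, beside 0.0235% without the block. The fold at 28 dpi was 1.41, under the limit for an SDEG. Transcripts of Cerkl on the opposite strand cover 8.04% of its exon bases, where reads of the pair cannot be told apart.

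Itga3, an α subunit of laminin receptors, lies at chr11:95044474-95076801 on the − strand. Itga3 measured 24.5, 28.7, 28.9, 29.6 and 31.2 in sham, while the 4 dpi animals had 29, 30, 30.7 and 33.6, the 7 dpi group 27.7, 29.6, 30.8, 31 and 32.4, the 14 dpi group 27.3, 28.6, 30.3, 30.8 and 38.3, the 28 dpi group 31.6, 32.8, 37.7, 39.4 and 43.9, and the 42 dpi group 26.9, 30, 30.8, 33.4 and 34.7. The groups did not overlap at 28 dpi. The difference was 0.36 ± 0.0889 (log2, SE, adjusted p = 0.00527, limma). The fold was 1.29, under the limit for an SDEG here, whereas the study counts Itga3 among its late upregulated SDEGs. The other laminin-binding subunits did not pass. Itga6 ranged from 37.4 to 48.1 in sham and from 34.5 to 48.2 at 28 dpi.

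Itga7, best known from muscle, was the other member of this group. Itga7 measured 10.5, 11.2, 12.7, 13.5 and 14.5 in sham, while the 4 dpi animals had 12.9, 13.9, 16.1 and 17.4, the 7 dpi group 10.5, 11.7, 12, 12.1 and 12.8, the 14 dpi group 11.2, 14.1, 14.6, 15.8 and 18, the 28 dpi group 10.9, 12.9, 13.2, 14 and 15.4, and the 42 dpi group 7.8, 8.5, 11.7, 11.9 and 14.2. Its highest values came at 4 and 14 dpi. The difference at 14 dpi was 0.22 ± 0.132 (log2, SE, adjusted p = 0.499, limma).

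The fibronectin receptor subunit Itga5 was low throughout. Itga5 measured 0.8, 0.8, 0.8, 0.9 and 1.4 in sham, while the 4 dpi animals had 0.4, 0.8, 0.9 and 1.1, the 7 dpi group 0.9, 0.9, 0.9, 0.9 and 1.1, the 14 dpi group 0.6, 0.8, 1, 1.1 and 1.3, the 28 dpi group 0.9, 1.2, 1.5, 1.7 and 2.9, and the 42 dpi group 0.5, 0.6, 0.9, 1.2 and 1.9. At 28 dpi, 3 of 5 animals lay above the sham range, led by A3-3. The difference was 0.52 ± 0.221 (log2, SE, adjusted p = 0.0800, limma). It passed when sham A11-1 or 28 dpi A4-3 was left out. The collagen-binding subunits Itga1 and Itga10, the RGD-binding Itga2b, Itga8 and Itgav, and Itga9 had log2 changes between -0.04 and 0.17 at 28 dpi, and none passed.

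None of the 7 β subunits passed at 28 dpi, beside 24.9% of all genes. Of these subunits, 3 had a higher mean than sham, beside 49.3% of all genes. The median log2 change was -0.0048 for the β subunits and -0.0048 for all genes. Itgb1, which α3 and α4 pair with, had the lowest log2 difference of all members at 28 dpi. Itgb1 measured 51.9, 59.9, 64, 64.4 and 67.3 in sham, while the 4 dpi animals had 48.6, 55.1, 56.9 and 71.9, the 7 dpi group 50.8, 54.2, 60.7, 60.9 and 64.6, the 14 dpi group 53.7, 59.7, 62.8, 63.7 and 76.8, the 28 dpi group 50.8, 52.8, 55.7, 59 and 62.7, and the 42 dpi group 49.2, 50.3, 52.3, 54 and 73.2. The groups overlapped at all times. At 28 dpi the difference was -0.13 ± 0.105 (log2, SE, adjusted p = 0.384, limma).

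Itgb8 ranged from 159.3 to 199.8 in sham and from 142.3 to 199.1 at 28 dpi. Itgb4, the partner of Itga6 in epithelia and Schwann cells, was among the 2 members with the lowest log2 differences at 4, 28 and 42 dpi, with overlap. Itgb4 measured 12.1, 14.2, 15.2, 17.4 and 21.5 in sham, while the 4 dpi animals had 11.2, 13.4, 13.8 and 14, the 7 dpi group 10.6, 11.3, 15.7, 16.9 and 17.8, the 14 dpi group 13.4, 14, 14.2, 14.3 and 16.4, the 28 dpi group 12.5, 14.1, 15.3, 15.7 and 16.5, and the 42 dpi group 11, 11.7, 11.8, 14.3 and 14.7. At 42 dpi the difference was -0.31 ± 0.132 (log2, SE, adjusted p = 0.261, limma).

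Itgb3, an αv partner known from platelets and osteoclasts, had the lowest log2 difference of all members at 7 dpi. Itgb3 measured 3, 3.5, 3.8, 4.3 and 5 in sham, while the 4 dpi animals had 3, 3.6, 4 and 4.7, the 7 dpi group 2.7, 2.7, 2.8, 3 and 3.7, the 14 dpi group 2.7, 3.3, 3.4, 3.4 and 4.6, the 28 dpi group 3.5, 3.7, 3.8, 3.9 and 4.3, and the 42 dpi group 2.5, 3, 3.3, 3.3 and 4.2. At 7 dpi, 3 of 5 animals lay below the sham range. The difference was -0.34 ± 0.139 (log2, SE, adjusted p = 0.819, limma). Itgb5, another αv partner, had its highest mean at 4 dpi. Itgb5 measured 25.5, 25.8, 26, 30 and 31.5 in sham, while the 4 dpi animals had 27.9, 36.8, 37.2 and 38.7, the 7 dpi group 24.5, 27.8, 30.5, 33.6 and 34.4, the 14 dpi group 27.4, 30.5, 32.8, 35 and 40, the 28 dpi group 27.8, 28.6, 31.1, 32.8 and 33.8, and the 42 dpi group 26.5, 27.3, 28.3, 28.9 and 30.7. There, 3 of 4 animals lay above the sham range and the fourth inside it. The difference was 0.33 ± 0.105 (log2, SE, adjusted p = 0.399, limma). Itgb7 stayed between 0.2 and 1.5 in all animals.

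**Figure D3:**
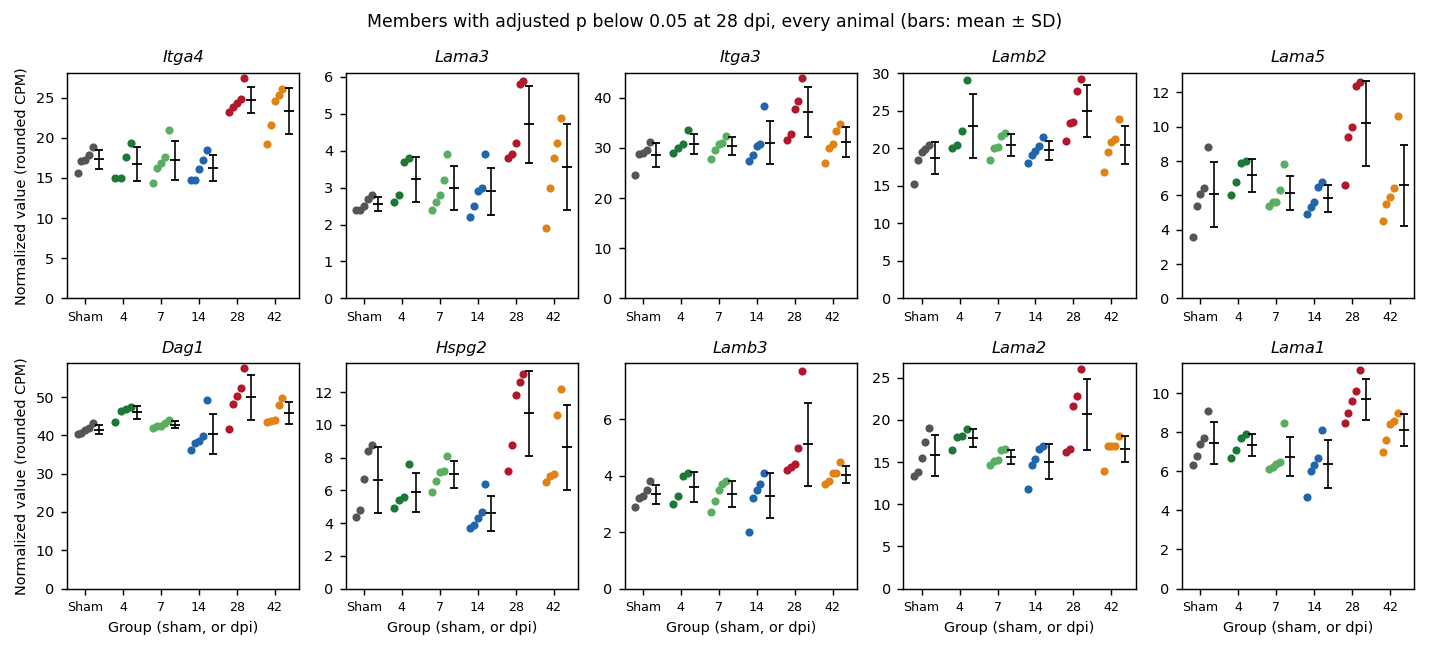
The 10 members with an adjusted p below 0.05 at 28 dpi against sham, as normalized value in every animal (points, spread sideways from lowest to highest) with the mean ± SD beside them. In Itga4, Lama3, Itga3, Lamb2 and Lamb3 all 5 animals at 28 dpi lie above the sham range, and in Itga4 the 42 dpi animals stay there.

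Across the members, 5 of 35 (14.3%) did not overlap with sham in the higher direction at 28 dpi, beside 6.15% of all genes, and none did in the lower direction (3.75% of all genes). The 28 dpi animals were not alike. The number of members above the sham range was 10 in A3-1 (beside 19.5% of all genes), 16 in A4-1 (25.9%), 15 in A4-3 (28.4%), 18 in A4-4 (26.2%) and 23 in A3-3 (31.5%), and the median change of the members was 0.06 (log2) in A3-1 and 0.32 in A3-3. The non-overlapping members at 42 dpi were Itga4 and Dag1 (5.71%, beside 2.21% of all genes, and none was lower, beside 1.1%). At 42 dpi, A1-3 had 19 members above the sham range (beside 25.1% of all genes), while the other 4 animals had between 7 and 10 (17.3% to 21.7%).

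Transcript length and residual ribosomal RNA differed along with the 28 dpi contrast. The median log2 change of the 5 ribosomal RNA genes with a row was 2.56 at 28 dpi (4 passed the adjusted p) and 2.41 at 42 dpi (1 passed). The members have long transcripts, with a median of 5784 bases against 3006 bases over all genes, and a median GC content of 53.0% against 49.55%. In each animal, the log2 values minus each gene's mean over all animals were fitted on log2 transcript length. Genes with a known length and a mean value of at least 1 were used. The slope ranged from -0.07 to 0.07 over the sham animals, from -0.08 to -0.03 over the 14 dpi group and from 0.00 to 0.13 over the 28 dpi group. Across the 35 members, which share their libraries, the log2 change at 28 dpi against sham had a Spearman's rho of 0.286 with transcript length and of 0.211 with GC content. After the values were corrected for length and GC content in each animal, none of the members was an SDEG at 28 dpi and 6 passed the adjusted p (Itga3, Itga4, Lama3, Lama5, Lamb2 and Lamb3), with log2 changes of 0.30 for Itga4, 0.48 for Lama5 and 0.52 for Lama3. Of all genes, 25.8% passed the adjusted p after this correction. With Rn18s-rs5 as a covariate, none of the members and 0 of the 16995 genes passed at 28 dpi, while 27 members had a higher mean and the median log2 change of the members was 0.155.

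Other scalings gave other counts. Under quantile normalization, 28 members had a higher mean at 28 dpi than in sham, and 10 passed the adjusted p, beside 22.7% of all genes. With median centring, these numbers were 32 and 12 (23.5% of all genes). With every library scaled to the same sum without ribosomal RNA they were 24 and 6 (27.5% of all genes), and Dag1, Lama1, Lama2 and Lamb2 no longer passed. With every library scaled to the same sum of values, the median log2 change of all genes at 28 dpi against sham was -0.72, and 12 members were called, 1 higher (Itgax) and 11 lower, beside 65.1% of all genes. The median of the members was then -0.465, above that of all genes. In 28 dpi A4-1, both its Rn18s-rs5 value (44760) and its length slope (0.01) lay inside the sham range. In this animal, 16 of the 35 members lay above every sham animal, beside 25.9% of all genes. The length slope of 28 dpi A3-1 also lay inside the sham range (0.0026), with an Rn18s-rs5 value of 418000, and 10 members lay above every sham animal there, beside 19.5% of all genes.

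**Figure D4:**
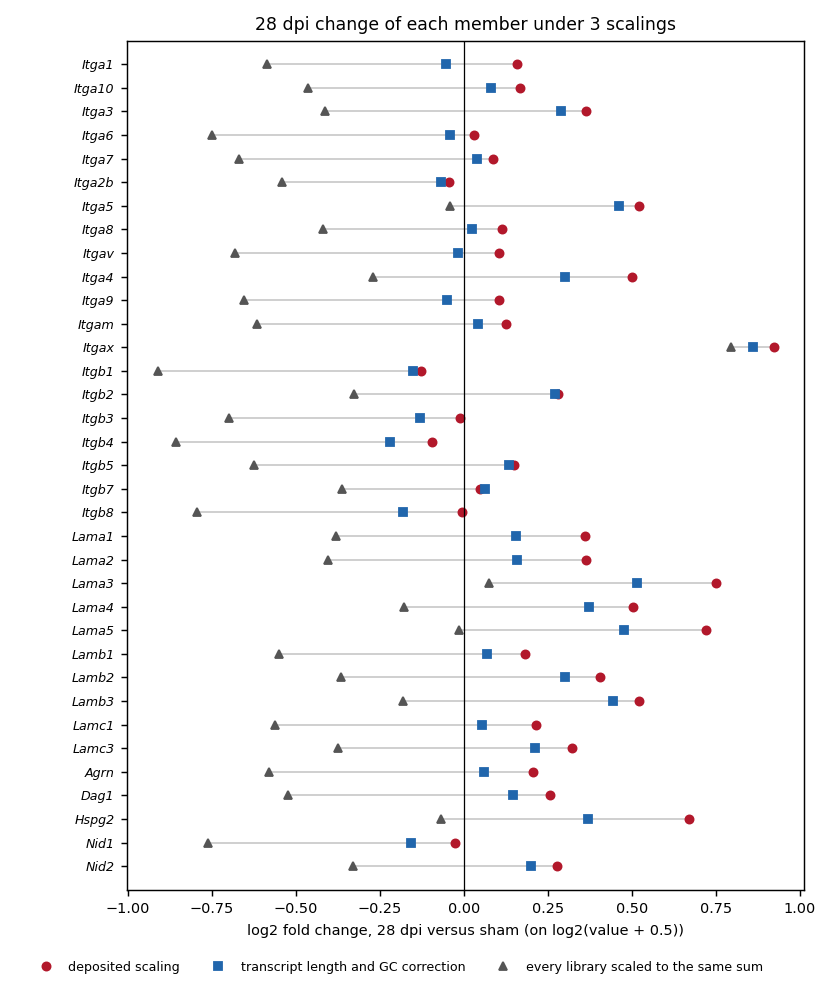
Log2 fold change of each member at 28 dpi against sham under the deposited scaling (circles), after correction for transcript length and GC content (squares) and with every library scaled to the same sum (triangles). The squares lie to the left of the circles for all members but Itgb7, and the triangles of all but Itgax and Lama3 lie below 0.

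Markers of the cells that make basement membranes were set beside these genes. At 28 dpi, the summed level of the 12 endothelial markers lay between 219 and 307, against 231 to 254 in sham, with 2 markers higher and 1 lower by adjusted p. The 8 pericyte and smooth muscle markers with a row summed to between 106.5 and 131, against 107 to 136 in sham, and none passed. The 9 fibroblast and meningeal markers with a row summed to between 44.3 and 51.6, against 40.2 to 47.4, and 1 passed, higher. No marker on these lists was at 0 in every animal of a group. Of the 9 astrocyte markers, 2 were higher and 3 lower at 28 dpi by adjusted p, and their summed level lay between 3824 and 4151, against 3646 to 4104 in sham. Of the 14 microglial markers, 3 were higher, and of the 9 oligodendrocyte markers, 6 were lower. Of all genes, 11.9% were higher and 13.0% lower by adjusted p. The part of cell composition in the changes was not tested.

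The change at 28 dpi was set against the earlier and later groups. Compared with 14 dpi, 4 members were SDEGs, Hspg2, Itga4, Lama3 and Lama5, all higher at 28 dpi, which is 11.4% of the members beside 11.8% of all genes. By adjusted p alone, 18 members (51.4%) were higher and none lower, beside 21.0% and 21.9% of all genes (43.0% in both directions). Hspg2 had the largest difference, at 1.12 ± 0.190 (log2, SE, adjusted p = 5.95e-05, limma). Its fold was 2.18 and the animals of both groups did not overlap. Itga4 differed by 0.59 ± 0.0940 (log2, SE, adjusted p = 3.89e-05, limma). Lama5 differed by 0.74 ± 0.188 (log2, SE, adjusted p = 0.00251, limma). The remaining SDEG, Lama3, differed by 0.62 ± 0.175 (SE, adjusted p = 0.00568, limma). The members that passed included all 3 laminin β chains, both γ chains, both collagen-binding integrin subunits and Nid1. Of the 31-base words of the transcripts of Itga10, 1 of the collagen-binding subunits, 31.8% also occur in Gm42957 on the same strand, so its level is uncertain. Over the 35 members, the change from 14 to 28 dpi had a Spearman's rho of 0.661 with transcript length, and after the length and GC correction 3 members passed the adjusted p and 1 of them, Hspg2, was an SDEG (0.64, adjusted p = 0.00277, limma), beside 39.1% and 9.37% of all genes. Hspg2 and Lama5 were SDEGs in each of the 10 fits without 1 animal, Itga4 in 7 and Lama3 in 6 of them. The number of SDEGs was 8 without 14 dpi A6-3 and 7 without 28 dpi A3-1.

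Compared with 4 dpi, 2 members were SDEGs at 28 dpi, Hspg2 and Itga5 (5.71% beside 4.34% of all genes), both higher, and 4 passed the adjusted p, beside 19.9% of all genes. Hspg2 differed by 0.80 ± 0.202 (log2, SE, adjusted p = 0.0106, limma). Itga5 differed by 0.68 ± 0.234 (log2, SE, adjusted p = 0.0394, limma). Hspg2 was called in all 9 fits without 1 animal, and Itga5 in 3 of them (without 4 dpi A9-2, 28 dpi A4-1 or 28 dpi A4-3). Itgb2 became an SDEG in the lower direction without 28 dpi A3-1 (-0.67, adjusted p = 0.0455, limma) or A4-1 (-0.67, adjusted p = 0.0474, limma). In the higher direction, Itga4 became one without 4 dpi A10-4 and Lama5 without 28 dpi A3-1. After the length and GC correction no member was an SDEG (3.75% of all genes), and with the Rn18s-rs5 covariate no member and 0 genes passed the adjusted p. With equal sums, 18 members were called in this comparison, all of them lower, beside 65.7% of all genes.

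From 28 to 42 dpi, 32 of the 35 members had a lower mean, with a median log2 change of -0.19, and none was an SDEG (0.224% of all genes were) or passed the adjusted p (1.94%). Of all genes, 48.9% had a higher mean at 42 dpi. The test gave 12 members with an unadjusted p below 0.05, all lower at 42 dpi, beside 21.1% of all genes. Lama5 came nearest, with -0.62 ± 0.188 (log2, SE, adjusted p = 0.0702, limma). With the unit in the animal names as a random block, Lama5 was an SDEG, beside 0.518% of all genes. Leaving out 28 dpi A3-1 made Lama5 (-0.76, adjusted p = 0.0161, limma), Lama4 (-0.73, adjusted p = 0.0149, limma) and Lamc3 (-0.71, adjusted p = 0.0311, limma) SDEGs. Leaving out 42 dpi A1-3, the animal with the highest Lama5 at 42 dpi, made Lama5 one (-0.79, adjusted p = 0.0223, limma). Itga4 differed by -0.087 ± 0.0940 (log2, SE, adjusted p = 0.619, limma).

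The β2 integrins of leukocytes and microglia did not pass the adjusted p against sham at any time in the fit of all 6 groups to the values as deposited. Itgb2 encodes the β2 subunit, and Itgam and Itgax encode the αM and αX subunits that pair with it and mark microglia, macrophages and, for αX, dendritic and reactive microglial cells. Itgax was listed at 0 in 3 of the 5 sham animals. Itgax measured 0, 0, 0, 0.1 and 0.1 in sham, while the 4 dpi animals had 0.5, 0.7, 1 and 1.3, the 7 dpi group 0, 0.1, 0.8, 1.5 and 2.5, the 14 dpi group 0, 0.6, 1.4, 1.4 and 1.6, the 28 dpi group 0, 0.2, 0.3, 0.9 and 2.3, and the 42 dpi group 0, 0.3, 0.3, 0.4 and 2.2. All 4 animals at 4 dpi and 4 of 5 animals at 14, 28 and 42 dpi lay above the sham range, but each group from 7 dpi on held an animal at 0. At 4 dpi the difference was 1.32 ± 0.496 (log2, SE, adjusted p = 0.658, limma). No fold is given, since sham was at or near 0. A fit of only the 2 groups gave the same difference with an adjusted p of 0.0468. With equal sums, Itgax passed at 4 dpi (1.52, adjusted p = 0.0178, limma) and at 28 dpi (0.79, adjusted p = 0.0246, limma). Itgam then passed at 28 dpi in the lower direction (-0.61, adjusted p = 0.0414, limma), where the median of all genes was -0.72. Of the 31-base words of its transcripts, 10.7% also occur in Itgad, a gene not analysed here, so that reads could be split between them.

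Itgb2 measured 1.6, 1.8, 1.9, 1.9 and 2.1 in sham, while the 4 dpi animals had 2.5, 3.2, 4.1 and 5.2, the 7 dpi group 1.4, 1.6, 2.1, 3.6 and 4.1, the 14 dpi group 1.7, 1.7, 2.1, 2.5 and 2.5, the 28 dpi group 1.4, 1.7, 2.1, 3.7 and 3.7, and the 42 dpi group 1.7, 2.2, 2.5, 2.7 and 2.7. At 4 dpi all animals lay above the sham range, and at 7 and 28 dpi 2 of 5 animals stood clear of the rest at 3.6 and above. At 4 dpi the difference was 0.81 ± 0.241 (log2, SE, adjusted p = 0.332, limma). Itgam measured 7, 8.3, 8.8, 9 and 9.3 in sham, while the 4 dpi animals had 9.8, 10.9, 11.2 and 12.3, the 7 dpi group 7.4, 7.4, 7.8, 10.1 and 10.6, the 14 dpi group 6.9, 7.4, 9, 9.7 and 11.3, the 28 dpi group 7.8, 8.7, 9.7, 10.1 and 10.2, and the 42 dpi group 7.8, 7.9, 10.1, 11.1 and 11.7. Here too all 4 animals at 4 dpi lay above sham. The difference was 0.36 ± 0.138 (log2, SE, adjusted p = 0.667, limma). Of the words of Itgam, 68.1% occur in other genes and 67.2% in Gm49368, a gene model that overlaps it on the same strand, so its level is uncertain. In all, 4 of 35 members (11.4%) were separated from sham in the higher direction at 4 dpi, Itgax, Itgb2, Itgam and Dag1, beside 1.09% of all genes, and none in the lower direction (0.612% of all genes). Microglial markers moved with them: their summed level lay between 186 and 312.5 at 4 dpi against 148.5 to 168.6 in sham, all 14 had a higher mean and 3 passed the adjusted p. Of the 15 markers of blood and infiltrating leukocytes, 8 had a row, and these summed to between 6.4 and 33.6 at 4 dpi against 8.5 to 17.7 in sham, with none passing. Their part in the difference was not tested.

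The 3 genes also varied together between animals. After group means were subtracted, Itgax and Itgb2 had a Pearson's r of 0.731 over 29 animals (permutation p = 0.00033, adjusted 0.0009) and a Spearman's rho of 0.786 (permutation p = 0.00011, adjusted 0.00055). Itgam had r = 0.631 with Itgax (permutation p = 0.00279, adjusted 0.00465; rho = 0.667, permutation p = 0.00115, adjusted 0.00192) and r = 0.632 with Itgb2 (permutation p = 0.00036, adjusted 0.0009; rho = 0.646, permutation p = 0.00058, adjusted 0.00145). Hspg2 had r = 0.608 with Lama5 (permutation p = 0.00539, adjusted 0.00539; rho = 0.616, permutation p = 0.00233, adjusted 0.00291) and r = 0.508 with Itga4 (permutation p = 0.00483, adjusted 0.00539; rho = 0.528, permutation p = 0.00547, adjusted 0.00547). These 5 relations were the ones computed, and all tests are two-sided, with 100000 permutations within groups. The pairs were chosen after the values were seen, and p was adjusted over these 5 only. The p values therefore do not allow for that choice and only describe these pairs. Without the 2 animals farthest from the median, r was 0.725, 0.668, 0.695, 0.518 and 0.452 in the order given. Genes of 1 library share its scaling and its length slope, so that r holds their part too.

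**Figure D5:**
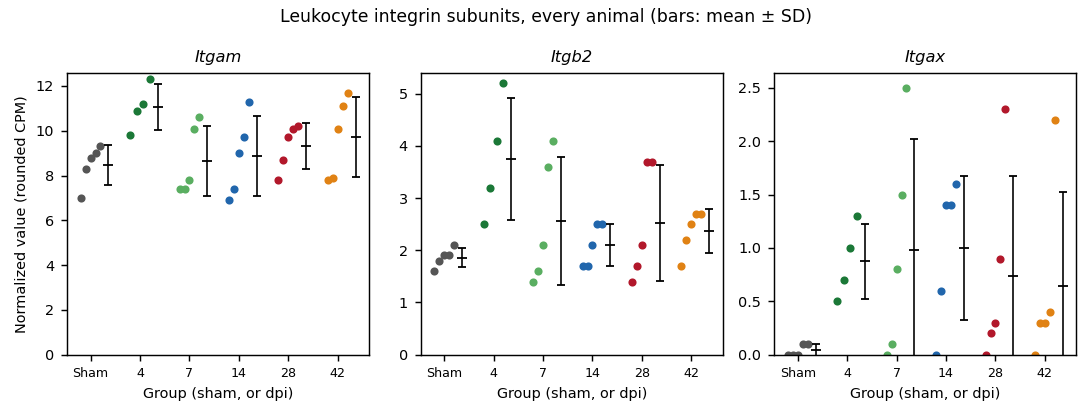
Itgam, Itgb2 and Itgax as normalized value in every animal (points) with the mean ± SD (bars, cut at 0). At 4 dpi all 4 animals lie above the sham range in each panel, and from 7 dpi on single animals remain high, up to 2.5 for Itgax.

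Genes that act with these receptors were read from further lists, chosen with earlier results of these data known. Of 29 integrin adaptor and signalling genes with a row, 3 were higher and 5 lower by adjusted p at 28 dpi, beside 24.9% of all genes. None of the genes on these lists passed at 4, 7, 14 or 42 dpi, when 0.106%, 0.0294%, 0.00588% and 0.0235% of all genes did. Tns1, a tensin that links β subunits to actin, had 118 ± 36.7 at 28 dpi and 67.0 ± 14.1 in sham (SD, n = 5 each), a log2 change of 0.78 (adjusted p = 0.0306, limma). Apbb1ip, which brings talin to integrins through Rap1, had 1.80 ± 0.621 at 28 dpi and 0.980 ± 0.205 in sham (SD, n = 5 each), a log2 change of 0.61 (adjusted p = 0.0321, limma). Fyn, a Src family kinase downstream of integrins, had 47.4 ± 1.28 at 28 dpi and 54.3 ± 2.86 in sham (SD, n = 5 each), a log2 change of -0.19 (adjusted p = 0.0234, limma). Lims2, a partner of integrin-linked kinase, had 4.48 ± 1.11 at 28 dpi and 6.10 ± 0.644 in sham (SD, n = 5 each), a log2 change of -0.43 (adjusted p = 0.0278, limma).

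Of 24 other integrin ligands, 4 were higher and none lower at 28 dpi, beside 11.9% and 13.0% of all genes. Fn1, which encodes fibronectin, a ligand of α4β1 and α5β1, had 30.8 ± 6.08 at 28 dpi and 17.8 ± 2.81 in sham (SD, n = 5 each), a log2 change of 0.76 (adjusted p = 0.00365, limma). Vwf, an endothelial ligand of αIIbβ3, had 12.4 ± 2.35 at 28 dpi and 8.16 ± 1.23 in sham (SD, n = 5 each), a log2 change of 0.57 (adjusted p = 0.00815, limma). Tnr, a tenascin of perineuronal nets, had 141 ± 17.6 at 28 dpi and 110 ± 10.8 in sham (SD, n = 5 each), a log2 change of 0.36 (adjusted p = 0.00431, limma). Ltbp1, which ties latent TGF-β to matrix, had 21.3 ± 5.08 at 28 dpi and 16.0 ± 2.68 in sham (SD, n = 5 each), a log2 change of 0.38 (adjusted p = 0.0157, limma).

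The dystrophin-glycoprotein complex and the enzymes that glycosylate dystroglycan had 2 of 18 genes higher and 2 lower, beside the same shares of all genes (24.9% in both directions). Sgcd (δ-sarcoglycan) had 6.12 ± 1.18 at 28 dpi and 4.24 ± 0.365 in sham (SD, n = 5 each), a log2 change of 0.47 (adjusted p = 0.0148, limma). Utrn (utrophin) had 150 ± 16.3 at 28 dpi and 126 ± 11.2 in sham (SD, n = 5 each), a log2 change of 0.25 (adjusted p = 0.0166, limma). B4gat1, an enzyme of the laminin-binding glycan, had 28.2 ± 2.28 at 28 dpi and 33.2 ± 2.39 in sham (SD, n = 5 each), a log2 change of -0.23 (adjusted p = 0.0153, limma). Pomgnt1, a further enzyme of dystroglycan glycosylation, had 24.1 ± 1.57 at 28 dpi and 27.6 ± 0.833 in sham (SD, n = 5 each), a log2 change of -0.19 (adjusted p = 0.0157, limma).

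Of 10 other laminin receptors and integrin-associated proteins, 3 were higher and 2 lower, beside 11.9% and 13.0% of all genes. Plec, which encodes plectin, the cytolinker of α6β4, had 359 ± 71.8 at 28 dpi and 231 ± 22.9 in sham (SD, n = 5 each), a log2 change of 0.61 (adjusted p = 0.00172, limma). Cd47, the integrin-associated protein, had 36.9 ± 3.18 at 28 dpi and 27.0 ± 2.18 in sham (SD, n = 5 each), a log2 change of 0.44 (adjusted p = 0.0138, limma). Rpsa, the ribosomal protein also described as a laminin receptor, had 122 ± 30.6 at 28 dpi and 166 ± 23.4 in sham (SD, n = 5 each), a log2 change of -0.47 (adjusted p = 0.00925, limma). Dst, which encodes dystonin, had 2100 ± 330 at 28 dpi and 1719 ± 184 in sham (SD, n = 5 each), a log2 change of 0.28 (adjusted p = 0.0341, limma). Itgae and Itgbl1, integrin-related genes outside the rule, did not pass in any contrast with sham.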

How the data were processed

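RNA from the spinal cord of 30 mice was measured by RNA-seq, and 29 of them had values. The deposited table holds 1 score per gene and animal, which the authors made by rRNA depletion, a kit that does not mark strand, single-end sequencing, SALMON 0.8.1 and Tximport 1.0.3 on mm10, and edgeR 3.14.0 normalization to CPM in R 3.4.1. The values were rounded to 0.1, so they are no counts and the depth is unknown. The authors' own columns of fold changes and p-values were not used. Whether the counting used strand is not given in the sources used here.

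Here, log2(value + 0.5) was fitted with limma 3.58.1 (R 4.3.3, 6 group means, trend on the mean, Benjamini-Hochberg over all 16995 genes, no filter on low values), and the code was tested on simulated data. Replicates were separate animals by the labels. The members and gene lists were chosen with earlier results of these data known. Values in every animal are given for 24 members: those with an adjusted p under 0.05 against sham, at each time point the 2 highest and 2 lowest log2 differences among members with a mean of at least 1, Itgam, Itgax, Itgb2 and the laminin chains Lama2, Lama4, Lama5, Lamb1, Lamb2 and Lamc1. From each other list, up to 4 genes that passed are named, by lowest p. Alternatives changed the pseudocount, filter, fold limit, scaling, covariates, samples fitted and length and GC correction.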

Additional observations from a re-analysis of the deposited data

Results flagged for a closer look

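Among 144 combinations of a member and a group, 8 held an animal that stood far from the rest of its group by Dixon's test, where chance flags about 1 in 20. These were Itga5 in sham A11-1 (value 1.4) and in 7 dpi A7-4 (value 1.1, where the other 4 animals shared 1 value at this rounding), Itgb1 in 42 dpi A3-4 (73.2), Itgb5 in 4 dpi A9-2 (27.9), Lama1 in 7 dpi A8-3 (8.5), Lama2 in 42 dpi A1-3 (14.0), Lamb3 in 28 dpi A3-3 (7.7) and Nid1 in 14 dpi A5-4 (4.0).

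For 5 members, stroke groups of different time points differed by the limma test of the difference itself together with the fold limit of 1.5. Time and the unit in the animal names cannot be told apart here. The parts of residual ribosomal RNA and length slope were not tested. After the length and GC correction, 1 member was an SDEG against 14 dpi and 0 against 4 dpi, beside 9.37% and 3.75% of all genes. By adjusted p alone, 18 members passed for 28 against 14 dpi and 4 for 28 against 4 dpi, beside 43.0% and 19.9% of all genes. Compared with 14 dpi, the log2 value at 28 dpi was higher by 1.12 for Hspg2 (adjusted p = 5.95e-05), 0.59 for Itga4 (adjusted p = 3.89e-05), 0.62 for Lama3 (adjusted p = 0.00568) and 0.74 for Lama5 (adjusted p = 0.00251), which is 11.4% of the members beside 11.8% of all genes. Compared with 4 dpi, the log2 value at 28 dpi was higher by 0.80 for Hspg2 (adjusted p = 0.0106) and by 0.68 for Itga5 (adjusted p = 0.0394), which is 5.71% of the members beside 4.34% of all genes.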

How the results depend on the processing

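The number of SDEGs among the members at 28 dpi against sham (3) was 10 with no fold limit (beside 24.9% of all genes), 0 with a fold limit of 2 and 12 with equal sums (beside 65.1%). It was 0 with Rn18s-rs5 as a covariate, where 0 of the 16995 genes passed (median log2 change of the members 0.155, against 0.21). After the length and GC correction it was 0, beside 4.46% of all genes. Equal sums moved the median of all genes to -0.72 and that of the members to -0.465, and relative to sham 13 of the members named with values in every animal, each past the adjusted p under 1 of these scalings, had the opposite sign, with log2 changes of -0.52 for Dag1, -0.067 for Hspg2, -0.41 for Itga3, -0.27 for Itga4, -0.67 for Itga7, -0.61 for Itgam, -0.63 for Itgb5, -0.38 for Lama1, -0.40 for Lama2, -0.015 for Lama5, -0.36 for Lamb2, -0.18 for Lamb3 and -0.56 for Lamc1, signs that are to be read against the shift of all genes. Against 4 dpi (2), the count was 4 with no fold limit (beside 19.9% of all genes) and 0 with a fold limit of 2. It was 0 with the Rn18s-rs5 covariate (0 of all genes) or after the length and GC correction (3.75%). It was 1 with a pseudocount of 1 (2.72%), with equal sums without ribosomal RNA (5.42%) or in a fit of only the groups compared (1.19%). With equal sums it was 18 (65.7%). Against 14 dpi (4), it was 18 with no fold limit (beside 43.0% of all genes) and 1 with a fold limit of 2. It was 1 with equal sums (4.21%) or after the length and GC correction (9.37%), and 2 with a pseudocount of 1 (8.4%). It was 7 with a pseudocount of 0.1 (14.0%) or median centring (12.4%). At 4 dpi against sham (0), it was 1 with equal sums (0.0824% of all genes) or in a fit of only the groups compared (0.053%). At 14 dpi against sham (0) it was 1 with equal sums (0.194%). The F test (13, beside 31.6% of all genes) gave 20 with equal sums, 8 with the Rn18s-rs5 covariate and 3 after the length and GC correction. For these fits, the fold limit of 2 and the fits without 1 animal, shares of all genes are not given. Their counts are therefore no result about the members. Leaving out 1 animal gave 0 to 0 members at 4, 7, 14 and 42 dpi, 1 to 4 at 28 dpi, 1 to 3 for 28 against 4 dpi, 3 to 8 for 28 against 14 dpi, 0 to 3 for 42 against 28 dpi and 7 to 16 for the F test. No paired analysis was possible because the animals carry names and no replicate numbers shared between groups. With the unit in the animal names (such as A3 or A4) as a random block, whose correlation was -0.044, 1 member was called for 42 against 28 dpi, Lama5 (beside 0.518% of all genes). Itga4 passed the adjusted p at 42 dpi against sham (beside 0.488%), while the other counts of SDEGs stayed within 1.5 times. Each unit but A3 held animals of 1 group only, so unit and time cannot be told apart. The causes of these changes were not tested. The number of animals, the rounding to 0.1 at low values and the unknown depth limit the precision.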
